A study of Mus musculus with 3 samples.

Results

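The 10 genes described here were Erp27 and 9 chaperones, disulfide isomerases and response factors of the endoplasmic reticulum (ER), namely Hspa5, Hsp90b1, Pdia3, Pdia4, Pdia6, Dnajb9, Sdf2l1, Herpud1 and Xbp1. They are 10 of the 22908 gene symbols and 18 of the 56605 non-control probes on the array. Erp27 was selected on its high processed signal on the array labelled Slpi vector, so its levels are a description, and the other 9 were chosen as well-known ER folding genes. The question was whether the ER folding genes rose together with the Erp27 signal.

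Hepa1c1c7 is an established mouse hepatoma cell line. The cells received an empty plasmid or a plasmid that encodes Mst1r (the receptor tyrosine kinase Ron) or Slpi (a secreted protease inhibitor). After a day in culture, RNA of each was measured on 1 single-colour Agilent SurePrint G3 Mouse array from 100 ng of RNA, and the arrays are called empty, Mst1r and Slpi arrays below. With 1 array per group there was no replicate check and no test, the number of arrays limits the precision, and both vectors were compared with the same empty array. The labels give the tissue as liver. The hepatocyte and hepatoma markers fit this in part: Alb, Afp, Apoa2, Trf and Foxa2 were well above background on all 3 arrays, whereas Apob and Hnf4a were not on any. Of the 11 such markers, 6, 7 and 8 were well above background on the empty, Mst1r and Slpi arrays, with a summed signal between 63202 and 78365.

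The arrays were labelled by the vector, and the probes of the transfected genes did not separate them by it. The Mst1r probe gave 4.15, 4.08 and 3.70 on the empty, Mst1r and Slpi arrays, at background on each, the brighter Slpi probe gave 6460, 3843 and 6680, and the dimmer Slpi probe 106, 91.7 and 85.8. Mst1r in these cells was also measured by real-time PCR in the study, which is not analysed here. Where these probes lie relative to the transfected coding sequences is not given in the sources used here, so directions below rest on the labels. Between 46.7% and 48.5% of probes were well above background and no spot was saturated.

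The ER is where secreted and membrane proteins fold. Hspa5 (BiP) and Hsp90b1 (GRP94) hold unfolded chains, disulfide isomerases form and rearrange disulfide bonds, and chains that fail to fold are sent out for degradation. When unfolded chains accumulate, the sensors Ire1 (Ern1), Atf6 and Perk (Eif2ak3) start the unfolded protein response, in which Atf6 and spliced Xbp1 induce chaperone genes through short promoter elements and Perk signals through Atf4 and Ddit3. Erp27 is a member of the disulfide isomerase family that lacks a catalytic site, binds Pdia3, and is best known from the exocrine pancreas.

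The promoter elements read by Atf6 and Xbp1 are shown here because they join several of the members as targets of 1 response. The ER stress response element was searched on both strands as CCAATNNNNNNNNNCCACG, ERSE-II as ATTGG and CCACG with 1 base between them and the element UPRE as TGACGTGG, where N is any base and all 3 hold the letters CCACG on 1 strand or the other. The search used RefSeq promoters of 300 bases (GRCm38.p6), from 250 before to 50 after each gene start. The 9 members other than Erp27 had a promoter in this table, and Erp27 was not searched. The first element was present in 3 of the 9, namely Hspa5, Hsp90b1 with a pair of matches, and Pdia6, against 0.119% of all 32851 promoters. ERSE-II was present in Herpud1, against 0.0365% of all promoters. UPRE was present in 0 of the 9, against 0.676% of all promoters. The 5 matches are printed 5′ to 3′ along the gene's strand, with the fixed letters of the element in capitals.
Hspa5, chr2:34772020-34772048, plus strand: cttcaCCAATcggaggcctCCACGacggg
Hsp90b1, chr10:86705633-86705661, minus strand: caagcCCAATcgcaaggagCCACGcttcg
Hsp90b1, element on the opposite strand, chr10:86705528-86705556, minus strand: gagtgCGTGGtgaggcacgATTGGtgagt
Pdia6, chr12:17266486-17266514, plus strand: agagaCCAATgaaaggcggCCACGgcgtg
Herpud1, ERSE-II, chr8:94386368-94386396, plus strand: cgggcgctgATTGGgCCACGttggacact

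The elements ended 46, 193, 88, 79 and 41 bases before the start of their genes, in the order printed. A match is a description of the letters and not of binding.

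Erp27 had 2 probes on the array. The first, A_55_P2094292, had a processed signal (spot intensity after background subtraction) of 1029 on the empty array, 888 on the Mst1r array and 20237 on the Slpi array, and it was well above background on all 3. The Slpi array thus stood alone, and the empty and Mst1r arrays lay close together. After scaling each array to its 75th percentile, the log2 difference from the empty array was 4.38 ± 0.10 on the Slpi array, which is 20.8-fold higher. The difference was 0.02 ± 0.13 on the Mst1r array. The value after ± is in each case the SD that repeated spots of a like signal give for a difference, and covers no variation between cultures. Between the vectors, the Slpi array was 20.5-fold higher than the Mst1r array.

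The second Erp27 probe, A_52_P366696, gave 4.57, 4.62 and 4.08 on the empty, Mst1r and Slpi arrays, at background on each. The signal of Erp27 on the Slpi array therefore rested on 1 spot of 1 probe, and the mean of both probes would be 4.43-fold higher on that array than on the empty array. The unprocessed median intensity of the first spot was 1112, 944 and 21696 over a local background of 20, 22 and 21, and the spot was not marked as an outlier on any array. The local background did not differ with the signal.

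**Figure D1:**
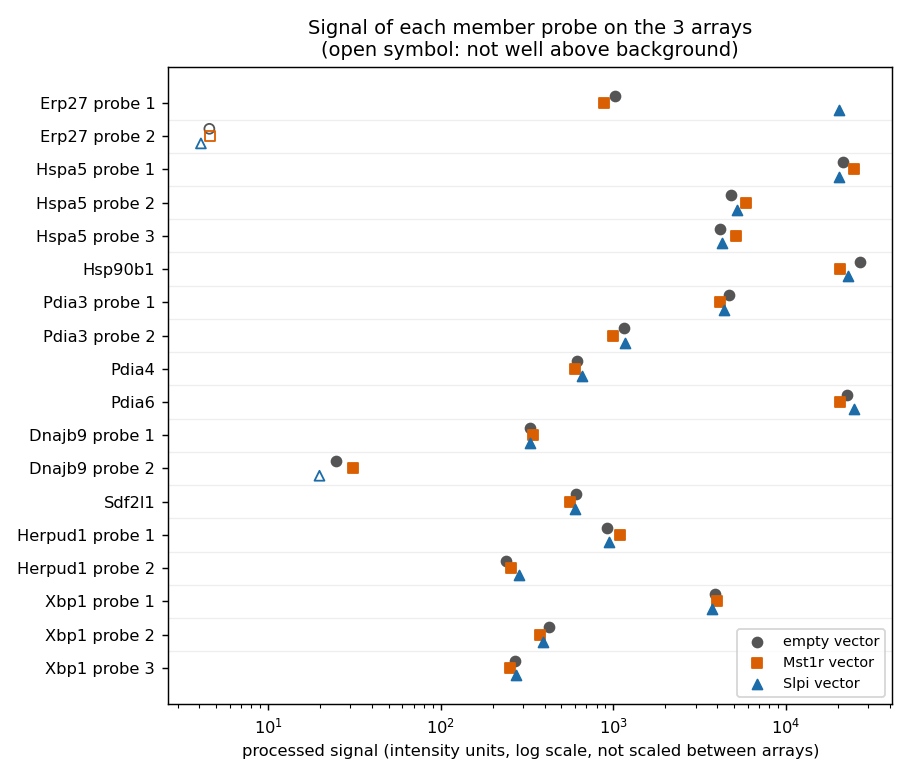
Processed signal in intensity units (log axis) of each probe of the 10 genes on the empty (circles), Mst1r (squares) and Slpi (triangles) arrays, with open symbols for probes not well above background. The first Erp27 probe is the one probe at which an array stands far from the other two, at 20237 on the Slpi array against 1029 and 888.

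The spots beside the first Erp27 probe were examined on the same arrays. It lay in row 80 and column 83. Of its 8 measured neighbours, 5 were well above background on all arrays (Psmd7, Bpgm, Col1a1, H2ac1 and Pigh), and their log2 differences between the Slpi and empty arrays lay between -0.14 for Pigh and 0.03 for H2ac1. None of these 5 shared the Erp27 difference. The other 3 neighbours were not well above background on all arrays. Of these, BB345836 gave 11.1 on the empty array and 33.6 on the Slpi array, a log2 difference of 1.68, XR_862323 gave 26.0 and 34.2, a difference of 0.47, and Gm32018 gave 6.57 and 3.46, a difference of -0.85.

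Control spots without target gave the level of stray signal. They were the spots of a set of control probes (ERCC) whose median signal was below 15 on every array. Control probes with a brighter median were left out, so the brightest spot depends in part on this choice. Of 2653 such spots the brightest reached 207 on the empty array, 289 on the Mst1r array and 481 on the Slpi array. None of these spots was as bright as Erp27 on any array, and Erp27 on the Slpi array was 42.1 times the brightest. Erp27 was chosen for its high signal and the control probes for being dark, so this is a description. On the Slpi array 27 of these spots were over 50, and 26 of the 27 lay in rows 1 to 128, as both Erp27 probes did, and these rows held 922 of the 2653.

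Among the 16959 features with a mean processed signal over 50, Erp27 ranked 52 by its log2 difference between the Slpi and empty arrays, and 22 among the 11611 with a gene symbol. At least 10-fold higher signal on the Slpi array was found for 0.436% of features. This contrast chose Erp27, so nothing is read from its rank. Of the 51 features above Erp27, 5 were well above background on the empty array and 5 were brighter than the brightest control spot of the Slpi array. In rows 1 to 128 lay 45 of the 51. For comparison, the rows after row 128 alone held 11836 features with a mean processed signal over 50, against 16959 on the whole array. None of the 51 was as bright as Erp27 on the Slpi array.

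The 5 gene symbols whose pair of log2 differences from the empty array lay closest to that of Erp27, among 11610 compared, were 4930455H04Rik, Tmem207, Cntn4, Gm12436 and Ppp2r3a, at distances of 0.54 to 0.90 (log2). Their signal was between 133 and 196 on the Slpi array, below the brightest control spot, and not well above background on the other arrays. Cntn4 and Ppp2r3a had 3 further probes, which were at background on each array. The likeness is therefore to dim probes, and Erp27 was well above background on all 3 arrays.

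**Figure D2:**
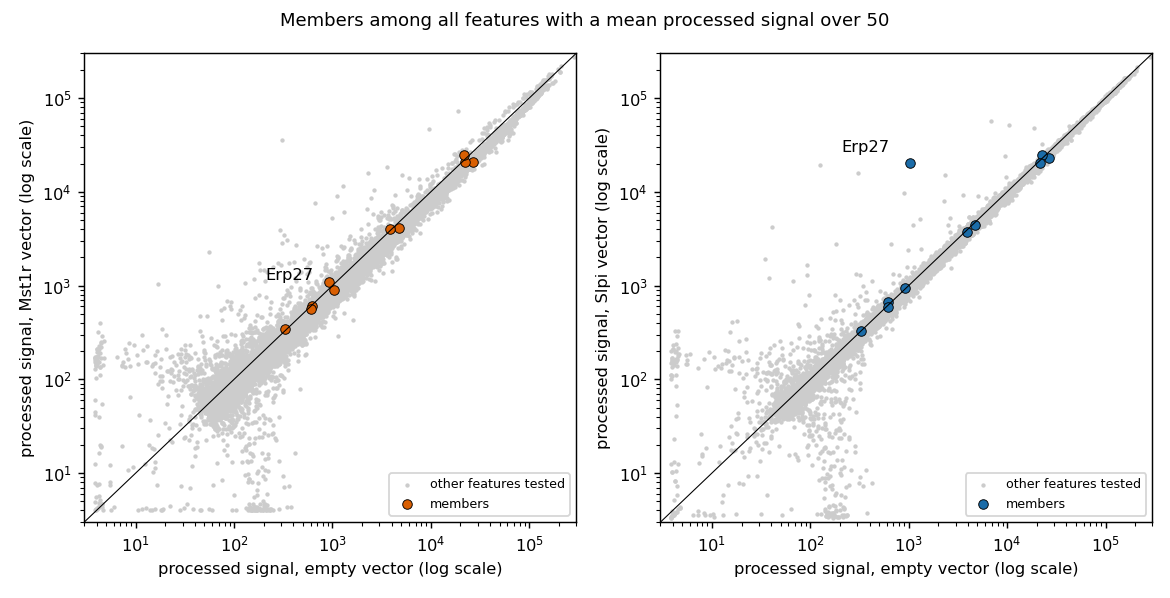
Processed signal on the Mst1r array (left) and the Slpi array (right) against the empty array, both axes log scaled and unscaled between arrays, for the 16959 features with a mean over 50 (grey) and the 10 genes (coloured). Erp27 stands off the line of equal signal on the Slpi array, at 20237 against 1029, and the other 9 genes lie along the line in both panels.

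The neighbours of Erp27 on mouse chromosome 6, in the order of the RefSeq gene table, did not share its signal. Of the nearest 3 on each side, Mgp, Art4, Smco3 and Rerg were at background on each array. Arhgdib gave 993, 914 and 965 with its brighter probe on the empty, Mst1r and Slpi arrays, a log2 difference of 0.04 ± 0.14 between the Slpi and empty arrays. Pde6h stayed between 21.5 and 36.3 over its 2 probes and 3 arrays. The adjacent genes with a signal were thus level between the Slpi and empty arrays within the technical error.

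Because Erp27 is known from the exocrine pancreas, markers of acinar cells were measured. Of 10 acinar markers, 7 were at background throughout (Amy2a5, Cela2a, Cela3b, Cpa1, Pnlip, Prss1 and Ptf1a). The summed signal of the list was 302, 380 and 307 on the empty, Mst1r and Slpi arrays. The enzyme Cel gave 180, 264 and 58.0 and the enzyme Ctrb1 70.8, 60.3 and 52.6. Both were well above background on all arrays, at levels below the brightest control spot of each array. Both were lowest on the Slpi array. Rbpjl, a transcription factor of acinar cells, gave 3.90, 12.5 and 136 and was well above background on the Slpi array alone, at a level below the brightest control spot. Its part in the Erp27 signal was not tested. On the empty, Mst1r and Slpi arrays, 4, 3 and 3 of 6 macrophage markers and 5, 4 and 5 of 6 fibroblast markers were well above background, and 2 of 5 endothelial markers were on each. Of the macrophage markers, Csf1r gave 2825, 3293 and 2726, Cd14 1119, 858 and 1157 and Cd68 531, 378 and 482 with their brightest probes. Of the fibroblast markers, Col1a1 gave 6508, 6677 and 5718 and Pdgfrb 596, 533 and 592. Their part in the Erp27 signal was not tested. The macrophage markers Adgre1 and Ptprc, the stellate cell marker Lrat and the endothelial markers Cdh5, Kdr and Tek were at background throughout.

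The 9 other members did not show the Erp27 pattern. A gene was counted when its scaled signal was at least 25% higher or at least 20% lower on an array, which are the same distance on the log scale. On the Slpi array 0 of the 9 was counted as higher than on the empty array, beside 3.48% of all features, and 0 as lower, beside 3.83%. Their log2 differences ran from -0.14 for Hsp90b1 to 0.22 for Pdia6, with a median of 0.05 beside 0.0033 over all features. The scaling shifted all features of the Slpi comparison by -0.23 to 0.17, depending on the reference. With median scaling all 9 members lay above 0 and Pdia4 and Pdia6 were over 25% higher, and with spike-in scaling all 9 lay below 0 and Hsp90b1 was over 20% lower. Of the features counted in either direction, 47.7% were higher, against 85.2% with median scaling, 8.23% with spike-in scaling and 29.6% without scaling. No direction is given for them on the Slpi array for this reason. Relative to the median of all features, the median of the 9 was 0.04 to 0.09 higher over the settings run. A change of scaling cannot move this value, since it shifts every feature alike.

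With the Mst1r vector, 2 of the 9, Hspa5 and Herpud1, were at least 25% higher than on the empty array, beside 11.0% of all features. None was at least 20% lower, beside 9.41%. The median of the 9 was 0.19 (log2) beside -0.04 over all features, and 8 of the 9 lay above 0 beside 42.2% of all features. The scaling shifted this comparison by -0.23 to 0.03. Without scaling 4 of the 9 lay above 0, where the median over all features was -0.27. Hspa5 and Herpud1 then fell short of 25%, which 5.68% of all features reached. In that setting Hsp90b1 was over 20% lower, beside 38.2% of all features. Of the features counted in either direction, 53.8% were higher, against 31.0% with spike-in scaling and 13.0% without scaling. Hspa5, Herpud1, Dnajb9 and Xbp1 lay above 0 and Hsp90b1 below 0 under every setting in which each was measured. Pdia3, Pdia4, Pdia6 and Sdf2l1 changed side without scaling, and Pdia3 and Pdia6 also with spike-in scaling.

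**Figure D3:**
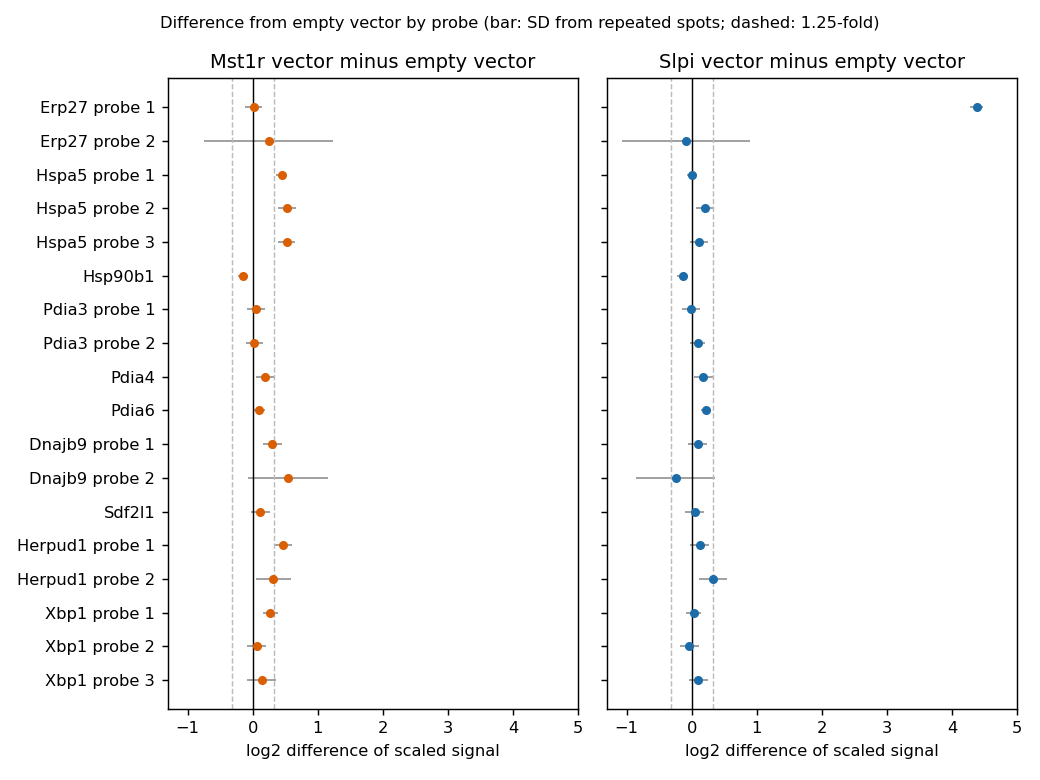
Log2 difference of the scaled signal from the empty array for each probe on the Mst1r array (left) and the Slpi array (right), with bars for the SD that repeated spots give and dashed lines at 25% higher and 20% lower. The 3 Hspa5 probes lie between 0.45 and 0.53 on the Mst1r array, and on the Slpi array the first Erp27 probe stands alone at 4.38.

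Hspa5, the main ER member of the Hsp70 family and the classical marker of the unfolded protein response, had 3 probes. The brightest gave 21470, 24924 and 20426 on the empty, Mst1r and Slpi arrays. The second gave 4807, 5912 and 5231, and the third 4179, 5113 and 4269. With all 3 probes the Mst1r array was the highest. The log2 differences between the Mst1r and empty arrays were 0.45 ± 0.08, 0.53 ± 0.13 and 0.52 ± 0.13. Between the Slpi and empty arrays they were 0.01 ± 0.08, 0.20 ± 0.13 and 0.11 ± 0.13. The 3 probes gave like differences on the Mst1r array, each over 3 times its spot error, and none on the Slpi array exceeded 2 times its error. Of all features, 7.61% were at least as high as Hspa5 on the Mst1r array and 49.0% on the Slpi array.

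Hsp90b1, the Hsp90 of the ER, gave 26735, 20601 and 22951 on the empty, Mst1r and Slpi arrays. It was highest on the empty array. The log2 differences were -0.15 ± 0.08 on the Mst1r array and -0.14 ± 0.08 on the Slpi array. These were close to each other, both below 2 times the error, and the value on the Slpi array changed side to 0.02 with median scaling. Hspa5 and Hsp90b1, which share the promoter element shown above, thus lay on opposite sides of 0 on the Mst1r array.

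Pdia3 (ERp57), the isomerase of glycoproteins to which Erp27 binds, gave 4688, 4148 and 4401 with its brighter probe. Its log2 differences were 0.05 ± 0.13 on the Mst1r array and -0.01 ± 0.13 on the Slpi array. The dimmer probe gave 1151, 998 and 1163 and log2 differences of 0.02 ± 0.13 and 0.09 ± 0.12. The binding partner of Erp27 was thus level within the technical error on both arrays with both probes.

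Pdia4 (ERp72), another isomerase, gave 619, 602 and 663. Its log2 differences were 0.19 ± 0.14 on the Mst1r array and 0.18 ± 0.14 on the Slpi array, neither over 2 times the error. Pdia6 (P5), which works with Hspa5, gave 22479, 20593 and 24775. The Slpi array had the highest processed signal for both isomerases. The log2 differences of Pdia6 were 0.10 ± 0.08 on the Mst1r array and 0.22 ± 0.08 on the Slpi array. The last was the one difference over 2 times the error among the 15 probes of the 9 members that were bright enough to be counted on the Slpi array, and it was -0.01 with spike-in scaling. Of all features, 6.81% were at least as high as Pdia6 and 9.70% at least as high as Pdia4 on the Slpi array.

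Dnajb9 (ERdj4), a J-domain partner of Hspa5 and a target of spliced Xbp1, gave 329, 345 and 331 with its brighter probe. The Mst1r array was the highest, by a log2 difference of 0.30 ± 0.14, and the Slpi array differed by 0.09 ± 0.14. The dimmer probe gave 24.9, 31.0 and 19.9, at background on the Slpi array. Sdf2l1, found in complexes with Hspa5 and its J-domain partners, gave 611, 564 and 597. Its log2 differences of 0.12 ± 0.14 and 0.05 ± 0.14 were within the error.

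Herpud1, a membrane protein of the degradation machinery, gave 920, 1088 and 947 with its brighter probe. The Mst1r array was the highest, by a log2 difference of 0.47 ± 0.13, and the Slpi array differed by 0.12 ± 0.14. The dimmer probe gave 241, 256 and 286. Its log2 differences were 0.32 ± 0.27 on the Mst1r array and 0.33 ± 0.22 on the Slpi array. The 2 probes differed in order, since the dimmer one was highest on the Slpi array.

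Xbp1, whose spliced form is a transcription factor of the response, gave 3881, 3983 and 3749 with its brightest probe. The log2 differences were 0.27 ± 0.12 on the Mst1r array and 0.03 ± 0.12 on the Slpi array. The other two probes gave 423, 376 and 391, and 270, 253 and 274, with log2 differences of 0.06 ± 0.14 and 0.14 ± 0.22 on the Mst1r array. The Slpi array gave -0.04 ± 0.14 and 0.10 ± 0.14. The brightest probe alone exceeded 2 times its error, on the Mst1r array. The probes are matched to Xbp1 as a gene and the spliced form was not measured separately.

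Counted by probe, the 9 members had 16 probes, of which 15 were bright enough to be counted and well above background on all 3 arrays. Against the empty array, 1 of the 15, the dimmer Herpud1 probe, was at least 25% higher on the Slpi array, which is 6.67% beside 3.61% of 21845 probes. For the Mst1r array it was 4 of the 15, which is 26.7% beside 9.90% of probes, and 3 of these 4 were probes of Hspa5. The probes of a gene share their RNA and are no replicates. The difference from the empty array exceeded 2 times the spot error for 6 of the 15 on the Mst1r array and for 1 on the Slpi array. The share of all probes past this limit was not computed, so nothing is read from these counts.

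The Mst1r and Slpi arrays were also set against each other. Hspa5, at 0.44 ± 0.08 (log2), and Herpud1, at 0.35 ± 0.13, were at least 25% higher on the Mst1r array, which is 2 of the 9 members beside 11.7% of all features. None was at least 20% lower, beside 10.2%. Dnajb9 followed with 0.21 ± 0.14 and Xbp1 with 0.24 ± 0.12. The other 5 lay between -0.11 for Pdia6 and 0.07 for Sdf2l1. With their brightest probes Hspa5 and Herpud1 lay on the other side of 0 from Erp27, at -4.36 ± 0.12. The other Hspa5 probes gave 0.33 ± 0.13 and 0.41 ± 0.13. The dimmer Herpud1 probe was level within the error, at -0.007 ± 0.22. With median scaling and without scaling, neither Hspa5 nor Herpud1 was 25% higher in this comparison, beside 7.39% and 6.94% of all features. Both stayed above 0 with their brightest probes. Of the features counted in either direction, 53.5% were higher on the Mst1r array, against 24.6% with median scaling, 77.5% with spike-in scaling and 21.4% without scaling.

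The rest of the pathway was measured with 5 lists of 102 genes in all, of which 87 had a mean signal over 50. With the Slpi vector, 2 of the 87 were at least 25% higher and 2 at least 20% lower, which is 2.30% each way beside the 3.48% and 3.83% of all features. The higher ones were Trib3 and Hyou1 and the lower ones Dnajc3 and Herpud2. The median log2 difference was 0.0033 beside 0.0033 over all features. With the Mst1r vector, 8 of the 87 were at least 25% higher, which is 9.20% beside 11.0%, and 1 was at least 20% lower, which is 1.15% beside 9.41%. The higher ones were Ero1a, Sil1, Edem2, Syvn1, Ddit3, Ppp1r15a, Trib3 and Chac1, and the lower one was Dnajc10. At least 1.5-fold higher were 5 of the 87, which is 5.75% beside 5.20% of all features. These counts moved with the scaling. With spike-in scaling, 0 of the 87 was higher and 16 lower on the Slpi array, which is 18.4% beside 23.4%, and with median scaling 7 were higher and 0 lower, which is 8.05% beside 12%. Without scaling, 5 were higher and 31 lower on the Mst1r array, which is 5.75% beside 5.68% and 35.6% beside 38.2%. In the same setting 2 were at least 1.5-fold higher, which is 2.3% beside 3.28%.

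**Figure D4:**
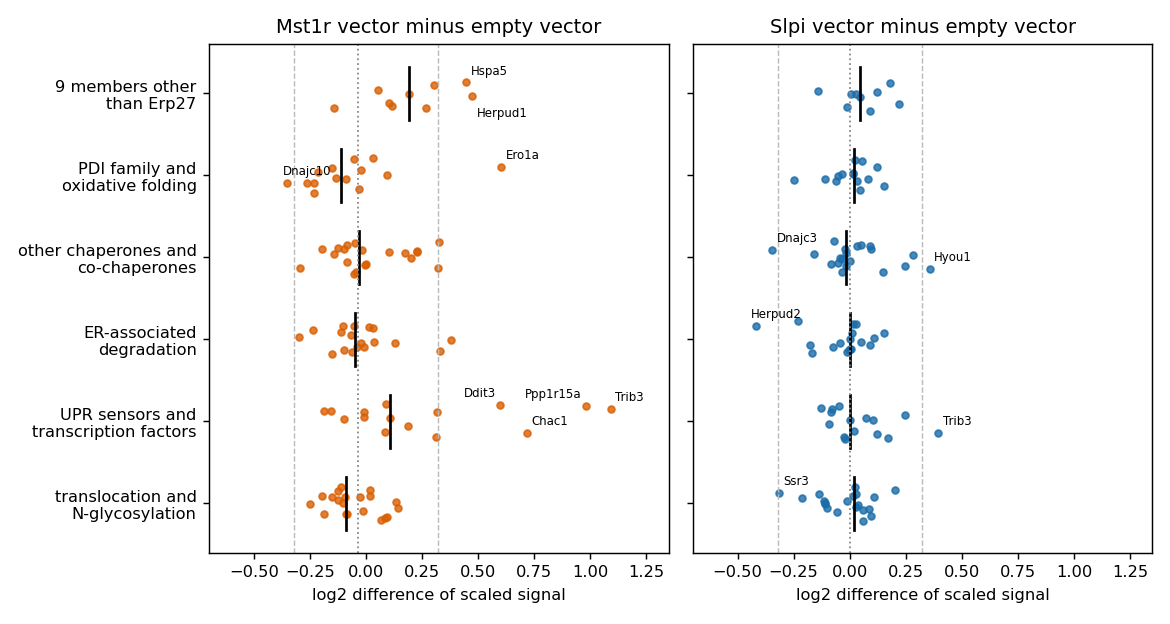
Log2 difference of the scaled signal from the empty array for the 9 members other than Erp27 and for the 5 wider lists, on the Mst1r array (left) and the Slpi array (right). Points are genes, solid bars list medians, the dotted line the median of all features and dashed lines 25% higher and 20% lower. Trib3, Ppp1r15a, Chac1, Ero1a and Ddit3 stand to the right on the Mst1r array, at 0.60 to 1.09, and on the Slpi array the bars of the 5 wider lists lie close to the dotted line.

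The disulfide isomerase family and the oxidative folding genes, to which Erp27 is related, had 14 of 19 members bright enough. None was counted as higher on the Slpi array, beside 3.48% of all features, or as lower, beside 3.83%, so 0 of 14 is near the background. Their log2 differences on that array ran from -0.25 ± 0.12 for Tmx2 to 0.15 ± 0.13 for Txndc5. None of its relatives that were bright enough thus shared the Erp27 difference. P4hb, the first known member of the family, gave 5220, 4747 and 5371 on the empty, Mst1r and Slpi arrays. Pdilt, a testis member without a full catalytic site, was at background with both probes. On the Mst1r array Ero1a, the oxidase that recharges the isomerases, gave 2401 against 1855 on the empty array, a log2 difference of 0.60 ± 0.12. Dnajc10, a reductase of the ER, was the lowest on the Mst1r array at -0.35 ± 0.12, and its other two probes gave -0.30 ± 0.22 and -0.13 ± 0.27.

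Of the other chaperones and co-chaperones, 20 of 26 were bright enough. Hyou1, a large chaperone that works with Hspa5, was the highest on the Slpi array at 0.36 ± 0.46, from dim signals of 48.3, 48.1 and 58.5 on the empty, Mst1r and Slpi arrays, and its other two probes gave 0.20 ± 0.46 and -0.21 ± 0.54. Its difference on the Slpi array was thus within the error. On the Mst1r array the same probes, all dim, gave 0.23 ± 0.46, 0.80 ± 0.38 and 0.88 ± 0.46 in this order. Of these, 0.80 alone exceeded 2 times its error. Dnajc3, an inhibitor of Perk, was the lowest on the Slpi array at -0.35 ± 0.22. Sil1, the exchange factor of Hspa5, was the highest on the Mst1r array at 0.32 ± 0.12, and Cnpy3 was the lowest at -0.29 ± 0.12. Sil1 was also at 0.28 ± 0.12 on the Slpi array. Its dimmer probe gave 0.16 ± 0.27 on the Mst1r array and -0.03 ± 0.27 on the Slpi array. The lectin chaperones Calr and Canx, which hand glycoproteins to Pdia3, differed by 0.03 ± 0.13 and 0.10 ± 0.08 on the Slpi array and by -0.12 ± 0.13 and -0.0009 ± 0.08 on the Mst1r array.

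Of the ER-associated degradation genes, 18 of 19 were bright enough. With the Mst1r vector Syvn1, the ubiquitin ligase Hrd1, was the highest at 0.38 ± 0.12, and Edem1, a lectin of the pathway, was the lowest at -0.30 ± 0.13. With the Slpi vector they ran from -0.42 ± 0.22 for Herpud2, a relative of Herpud1, to 0.15 ± 0.14 for Edem3. The value of Herpud2 was within 2 times its error.

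The list of sensors, transcription factors and other genes of the response had 15 of 18 members bright enough. Of these 15, 4 were at least 1.5-fold higher on the Mst1r array, beside 5.20% of all features. With spike-in scaling it was 3 of the 15 beside 4.19%, and without scaling 2 of the 15 beside 3.28%, since Ddit3 and Chac1 fell short. Trib3, a pseudokinase induced by Atf4 and Ddit3, gave 1669, 3031 and 2079 on the empty, Mst1r and Slpi arrays, which is 1.09 ± 0.12 (log2) on the Mst1r array and 0.40 ± 0.12 on the Slpi array. Ppp1r15a (GADD34), which reverses the translation block of Perk, gave 2963, 4979 and 3161. The Mst1r array was the highest for both. Chac1, a glutathione-degrading target of Atf4, gave 1965, 2750 and 1758. Ddit3 (CHOP) gave 1182, 1524 and 1083. The log2 differences on the Mst1r array were 0.98 ± 0.13 for Ppp1r15a, 0.72 ± 0.12 for Chac1 and 0.60 ± 0.12 for Ddit3. The values on the Slpi array were 0.17 ± 0.12, -0.08 ± 0.12 and -0.05 ± 0.12. The 4 genes act in the Perk and Atf4 branch, which amino acid shortage and other stresses also use, and none of them is a chaperone.

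The sensors themselves differed less. The log2 difference on the Mst1r array was 0.31 ± 0.22 for Ern1, 0.09 ± 0.14 for Atf6 and 0.19 ± 0.27 for Eif2ak3. Atf4, at 24772, 26250 and 25558 with its brighter probe, differed by 0.31 ± 0.08 on the Mst1r array and by 0.12 ± 0.08 on the Slpi array. Its dimmer probe, at 2458, 2317 and 2339, differed by 0.15 ± 0.12 and 0.007 ± 0.12, both below 2 times the error. The lowest of the list were Creb3l2 on the Mst1r array, at -0.19 ± 0.14, and Nfe2l2 on the Slpi array, at -0.13 ± 0.13. Ern1, Atf6 and Eif2ak3 were at 0.02 ± 0.27, -0.02 ± 0.14 and 0.25 ± 0.27 on the Slpi array, within the error.

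The genes of translocation, signal cleavage and N-glycosylation, through which new chains enter the ER, were all 20 bright enough, and none was counted in either direction in any of the comparisons. Of all features, 11.0% were higher and 9.41% lower on the Mst1r array, and 3.48% and 3.83% on the Slpi array, so that 0 of 20 is near the background for the latter. Without scaling, 9 of the 20 were at least 20% lower on the Mst1r array beside 38.2% of all features, and with spike-in scaling 7 of the 20 were on the Slpi array beside 23.4%. They ran from -0.25 ± 0.13 for Rpn1 to 0.14 ± 0.12 for Spcs2 on the Mst1r array. With the Slpi vector they ran from -0.32 ± 0.13 for Ssr3 to 0.20 ± 0.13 for Sec11a.

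The genes whose promoters hold the ER stress response element were set side by side. Among the members and the lists, 10 genes held it and 8 of these were bright enough. Their median log2 difference on the Slpi array was -0.0040, from -0.35 for Dnajc3 to 0.22 for Pdia6, and 0 of the 8 was at least 25% higher, beside 3.48% of all features, and 1, Dnajc3, at least 20% lower, beside 3.83%. For the Mst1r array the median was 0.05, from -0.15 for Hsp90b1 to 0.45 for Hspa5, and 2 of the 8, Hspa5 and Syvn1, were at least 25% higher, beside 11.0% of all features. Pdia6 and Hspa5 were thus the highest of these genes on the Slpi and the Mst1r array, respectively.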

How the data were processed

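The authors deposited, per the file headers, intensity values that Agilent Feature Extraction 12.0.3.1 made from 1-colour arrays (design annotation mm9). The processed signal is background subtracted, spatially detrended and not scaled between arrays, and a deposited table held the same values per probe.

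From these, log2 processed signal was computed for each spot (62976 per array), spots marked as outliers were left out, the rest were averaged by probe, and the 75th percentile of the array was subtracted. Accessions were matched to symbols of GRCm38.p6, which named 32994 of 56605 probes and served for names only. A gene was represented by its brightest probe, and counts used features with a mean signal over 50. The error came from probes printed at least 10 times. At log2 signals of 8 to 10, 10 to 12 and 12 to 14, it rested on 9, 12 and 19 probes, counted once per array. All 3 arrays shared 1 slide and 1 scan, so the place of an array on the slide and its group are confounded.

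The members and lists were chosen with earlier results of these data known. Named genes were all members, the highest and lowest detected gene of each list for each vector, Pdilt, the nearest 3 genes on each side of Erp27, the 5 most similar features, and markers. Genes chosen after their values were seen were P4hb, Calr, Canx, Atf4, Ern1, Atf6, Eif2ak3, Edem2, Ppp1r15a, Chac1 and Ddit3. Alternatives were other scalings, minimum signals and probe rules, all spots, the deposited table, the rows after row 128 and normexp with an offset of 50 on median spot signals (limma 3.58.1, R 4.3.3, Python 3.11.15). The computation was tested on simulated data.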

Additional observations from a re-analysis of the deposited data

How the results depend on the processing

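The Erp27 difference between the Slpi and empty arrays was 4.54 with median scaling, 4.15 with spike-in scaling and 2.15 as the mean of all probes, which includes the probe at background. Between the Mst1r and Slpi arrays it was -4.49, -4.24 and -2.01 in these settings and -4.51 without scaling, and between the Mst1r and empty arrays -0.21 without scaling. Both Erp27 probes lie in rows 1 to 128, so the rows after row 128 gave no value. In those later rows the median of the members between the vectors, relative to all features, was 0.24, from 5 members. Without a minimum signal, the wider lists were at -0.20 relative to all features on the Mst1r array and at -0.25 between the vectors. Of the 18 medians of the 9 members under alternatives other than scaling, 17 moved by less than the spread. This spread holds no variation between cultures, which 1 array per group cannot give. The medians ran from 0.19 to 0.30 on the Mst1r array, 0.04 to 0.09 on the Slpi array and 0.07 to 0.24 between the vectors. The 12 under other scalings are relative to all features and cannot move by construction. Of 258 single member values, 201 moved by less than their spot error.

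Over all features, the median difference was 0.17 with median scaling and -0.22 with spike-in scaling on the Slpi array, -0.27 without scaling and 0.18 without a minimum on the Mst1r array, and -0.16, -0.18 and 0.26 between the vectors with median scaling, without scaling and without a minimum. The percent at least 25% higher and at least 20% lower on the Slpi array was 12 and 2.08 with median scaling, 2.10 and 23.4 with spike-in scaling, 1.79 and 1.98 in the later rows and 9.17 and 13.9 without a minimum, with 6.44 lower without scaling and 2.08 lower with normexp. On the Mst1r array it was 5.68 and 38.2 without scaling, with 17.7 lower in spike-in scaling and 14.2 lower without a minimum. Between the vectors it was 7.39 and 22.7 with median scaling, 18.6 and 5.39 with spike-in scaling, 6.94 and 25.5 without scaling, and 31.4 higher without a minimum. Each scaling moves every feature by 1 amount, and the cause of the differences between scalings was not tested. No paired analysis was possible because each group had 1 array, and no array could be left out.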
